A study of Mus musculus with 2 samples.

Results

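Pseudogenes that were read in mouse adrenal gland are described here, taken as every gene whose annotated type contains the word pseudogene and that had at least 10 reads summed over both libraries. Of 13525 pseudogenes among 55536 annotated genes, 161 met this rule, with 14851 reads. A further 503 pseudogenes had 1 to 9 reads, 1209 reads in all, and the rest had none. The read counts that chose the genes are given as a description. At the border, 9 pseudogenes had exactly 9 reads, 7 had exactly 10 and 8 had exactly 11.

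The samples were 2 biological replicates of untreated adrenal gland from C57BL/6J mice, the common inbred laboratory strain, in 1 group. Their labels describe the animals as wild type and female while the sex field was not filled in, and they state no age. The labels give different biosamples with the same donor entry, so the spread between them may be partly technical. Total RNA was read as long cDNA molecules, so that 1 read can cover several exons of a transcript, though not always all of them. The libraries held 810239 reads (replicate 1) and 587861 reads (replicate 2). A count of 3 reads, the upper limit that a count of 0 allows, equalled 3.70 and 5.10 CPM, the reads of a gene scaled to a common library size. Such limits, and the 95% Clopper-Pearson intervals given below, cover counting error only, and a replicate pair without a second group allows no comparison of conditions.

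A pseudogene is a copy of a gene that has lost, or is thought to have lost, the ability to encode the original protein. Processed pseudogenes arise when an mRNA is copied back into DNA and inserted elsewhere, so they lack the introns of the source gene, and highly expressed housekeeping genes such as those of ribosomal proteins have left many of them. Unprocessed pseudogenes arise by duplication of genomic DNA and keep exons and introns. Unitary pseudogenes are formerly functional genes disabled in place, and polymorphic ones are intact in some individuals or strains. A well known unprocessed pseudogene lies near the gene for steroid 21-hydroxylase, an enzyme that the adrenal cortex needs for corticosterone and aldosterone synthesis.

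How near such copies can be to a coding gene is shown by stretches of 60 bases, written from 5′ to 3′ on the transcribed strand. They were taken from the GENCODE M21 transcripts (mm10), and bases are in capitals where a copy and its coding gene differ. Positions are counted from 1 at the first base of the coding sequence, and a substitution gives the coding gene's base first. The first set is from Gapdh, a glycolytic enzyme gene (chr6:125162977-125163036, minus strand, within 1 coding exon, positions 326 to 385), with the 4 most read of its 7 copies. T385A in Gm5559 and A346C in Gm13394 were the only differences in this stretch.
Gapdh: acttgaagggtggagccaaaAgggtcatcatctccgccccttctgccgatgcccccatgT
Gm12033: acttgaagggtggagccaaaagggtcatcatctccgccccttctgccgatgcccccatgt
Gm5559: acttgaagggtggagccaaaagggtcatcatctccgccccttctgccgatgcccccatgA
Gm13394: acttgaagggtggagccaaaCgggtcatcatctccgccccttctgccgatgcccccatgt
Gm12671: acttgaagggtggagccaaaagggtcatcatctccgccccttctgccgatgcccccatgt
Gm12033 differed from Gapdh by a single substitution in its whole coding part, T504C, and Gm12671 by none. These stretches lie at chr11:20335629-20335688 (Gm12033, minus strand), chr5:95862039-95862098 (Gm5559, plus strand), chr2:28934225-28934284 (Gm13394, minus strand) and chr4:91852285-91852344 (Gm12671, minus strand), each in the only exon of its pseudogene.

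The copies of Rpl35a and Rpl21, both genes of the large ribosomal subunit, carried bases that they shared with each other and not with the annotated coding gene. All 4 Rpl35a copies had G156A as their only substitution in the coding sequence, shown for the coding gene (chr16:33057475-33057534, plus strand) and its most read copy (chr6:48523614-48523673, plus strand).
Rpl35a: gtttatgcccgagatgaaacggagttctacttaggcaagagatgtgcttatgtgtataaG
Gm10243: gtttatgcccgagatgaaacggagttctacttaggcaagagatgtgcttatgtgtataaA
All 4 Rpl21 copies had T336C and T432C, and Rpl21-ps15 also had G378A. The stretch shown lies at chr5:146835640-146835699 (plus strand) in Rpl21, at chrX:151215272-151215331 (minus strand) in Rpl21-ps15 and at chr2:24986302-24986361 (plus strand) in Gm13370.
Rpl21: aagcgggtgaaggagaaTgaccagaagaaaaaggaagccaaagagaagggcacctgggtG
Rpl21-ps15: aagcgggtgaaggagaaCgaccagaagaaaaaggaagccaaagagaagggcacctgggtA
Gm13370: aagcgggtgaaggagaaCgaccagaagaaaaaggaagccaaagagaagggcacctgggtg
The unprocessed copy of Cyp21a1, the mouse 21-hydroxylase gene, was less alike, with 7 differences among the last bases of the coding sequence (positions 1399 to 1458). The stretch lies at chr17:34801786-34801845 in Cyp21a1 and at chr17:34719828-34719887 in Cyp21a2-ps, both on the minus strand.
Cyp21a1: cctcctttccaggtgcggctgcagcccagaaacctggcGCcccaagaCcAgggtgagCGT
Cyp21a2-ps: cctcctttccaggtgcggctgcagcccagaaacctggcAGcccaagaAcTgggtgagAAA
A read from an identical stretch cannot be told apart by its sequence, and how reads that match several loci equally well were placed is not given in the sources used here. The division of reads between a coding gene and its copies is therefore uncertain throughout.

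Processed copies made up most of the expressed pseudogenes: 117 were of the type processed and 16 of the type transcribed processed. The other 28 comprised 14 transcribed unprocessed, 11 unprocessed and 2 transcribed unitary genes and 1 polymorphic gene. As a share of the annotated genes of each type, members were 1.18% of 9941 processed, 5.41% of 296 transcribed processed, 0.416% of 2642 unprocessed and 5.53% of 253 transcribed unprocessed pseudogenes. No immunoglobulin or T cell receptor pseudogene had a read. Of the 161 genes, 93 overlapped no annotated gene outside the pseudogene types. An overlap with such a gene was found on the opposite strand for 50 and on the same strand for 20. For 7, the overlap reached an exon on the same strand, where reads could belong to either. Matched by symbol to RefSeq (GRCm38.p6), 148 genes had an entry: 112 were pseudogenes and 25 transcribed pseudogenes there, 5 were long noncoding RNAs, and 6 were protein coding (Rpl37rt, Gm15501, Rpl34-ps1, Gm10033, Gm21451 and Gm10509).

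Reads were concentrated in few of these genes. The median was 34 reads over both libraries, the 5 most read genes held 24.1% of all their reads and the 15 most read held 48.2%. The highest count belonged to Gm10123, a processed copy identical to the coding gene of the prolyl isomerase cyclophilin A (Ppia), with 928 reads in replicate 1 and 32 in replicate 2 (chr9:96895658-96896147, plus strand). Next came Gm9843, identical over its length to Fau, whose product is a fusion of a ubiquitin-like protein with ribosomal protein S30, with 736 and 17 reads. Gm10243, the Rpl35a copy printed above, had 647 and 21 reads, and Gm7536, identical to the large-subunit gene Rpl27a, had 592 and 24. Each of these 4 was read only as a single exon and was higher in replicate 1.

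Among the rest of the 15 most read, the Gapdh copies Gm12033 (509 and 70 reads) and Gm5559 (470 and 48) and the Rpl21 copies Rpl21-ps15 (485 and 26) and Gm13370 (268 and 15) all stood far higher in replicate 1. The ribosomal copies Rps13-ps2 (316 and 13), Rpl19-ps11 (292 and 15), Rps23-ps1 (283 and 9), Rpl15-ps3 (281 and 8), Rpl28-ps1 (271 and 12) and Gm12191, a copy of Rpl30 (229 and 16), had the same direction. Rpl19-ps11 shares its exon with the annotated gene Gm27288 on the same strand. Cyp21a2-ps, with 218 and 305 reads, was the only gene among the 15 with more reads in replicate 2 and the only one with spliced reads. Over all 161 genes, 141 had more reads in replicate 1 and 20 in replicate 2, and 2 were at 0 in replicate 1 and 21 at 0 in replicate 2.

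**Figure D1:**
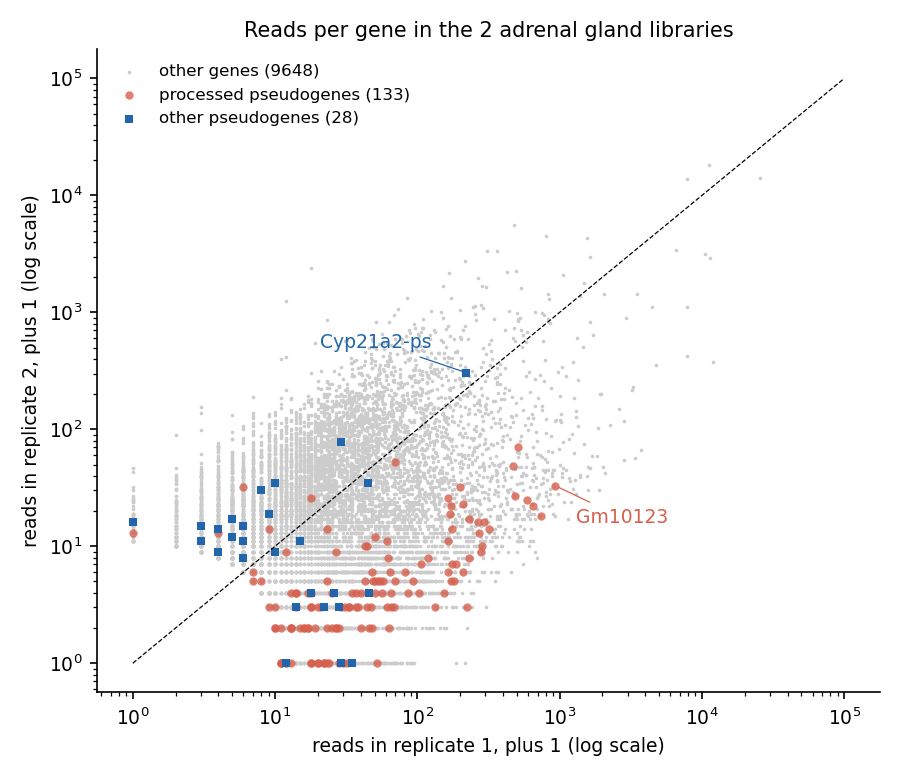
Reads of each gene in replicate 1 (horizontal) and replicate 2 (vertical), plus 1, on log scales, for the 133 processed and 28 other pseudogenes and the 9648 other genes with at least 10 reads; the dashed line marks equal counts. Most processed pseudogenes lie far below the line, as does Gm10123 (928 and 32 reads), while Cyp21a2-ps (218 and 305) lies just above it.

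The share of all reads on these pseudogenes differed widely between the replicates. They took 1.64% (1.61 to 1.67%) of the reads of replicate 1 and 0.266% (0.253 to 0.279%) of those of replicate 2, a mean of 0.953% ± 0.972 (SD, n = 2). Of the 161 genes, 107 had 10 reads in replicate 1 alone, 15 in replicate 2 alone, 28 in each and 11 only when the libraries were added. A gene that entered through the library in which it was high had to lean that way, so the counts below describe the genes and do not add support. The genes under the minimum had 835 reads in replicate 1 and 374 in replicate 2.

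Gene by gene, an exact binomial test of the reads in both libraries, scaled by TMM and adjusted over 9809 genes, called 129 pseudogenes with higher levels in replicate 1, another 10 with higher levels in replicate 2, and left 22 uncalled. This test called 66.2% of all tested genes, 35.6% towards replicate 1 and 30.6% towards replicate 2. It compares these libraries and not conditions, and whether the difference is technical or lies in the animals cannot be told apart with 1 library of each. The median log2 ratio of replicate 2 over replicate 1 was −3.52 over the pseudogenes and −0.01 over all tested genes. Processed copies had a median of −3.81, with 120 called towards replicate 1, 2 towards replicate 2 and 11 uncalled. The 28 others had a median of 0.45, with 9, 8 and 11 in the same order.

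The difference of single genes was large. Gm10123 was 29.3-fold (20.6 to 43.0) higher in replicate 1, Gm9843 43.7-fold (27.1 to 75.4) and Gm12033 7.34-fold (5.71 to 9.56) in the scaled counts. The lowest log2 ratios among called genes belonged to Rpl35a-ps2 (51 and 0 reads, −6.70), Rpl37rt, a copy of the large-subunit gene Rpl37 (224 and 2, −6.50), Hyi (34 and 0, −6.12), Gm5776, a copy of the mitochondrial ribosomal gene Mrps33 (31 and 0, −5.99), and Gm10250, a copy of the ATP synthase gene Atp5h (29 and 0, −5.90). The 95% intervals of the ratio for Rpl35a-ps2 and Hyi, both at 0 reads in replicate 2, began at 13.5-fold and 8.81-fold higher in replicate 1. A ratio against 0 reads depends on the pseudocount of 0.5 reads.

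The highest log2 ratios were those of Gm21451 (0 and 15 reads, 4.94), Gm10509 (0 and 12, 4.63), Gm21092 (2 and 14, 2.52), Gm7389 (5 and 31, 2.50) and 6820431F20Rik (7 and 29, 1.96). Gm21451 matched the lysyl oxidase gene Loxl2 with 100% identity over 85% of its length, and Loxl2 itself had 3 and 33 reads. Gm7389 is a processed copy of the tRNA exporter gene Xpot with an identity of 96.2%, and Xpot had 3 and 40 reads. These coding genes had more reads in replicate 2, as their pseudogenes did, whereas Zfp983, the zinc finger gene closest to Gm10509, had 12 and 6 reads.

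Transcript length moved with this library difference. The most read annotated model had a median length of 492 nt over the 147 pseudogenes with reads on such a model (476 nt in processed, 1179 nt in others). The other 14 pseudogenes had no length and entered none of these medians. Over all tested genes with a length the median was 2651 nt. Among models under 1000 nt, 120 pseudogenes had a median log2 ratio of −3.97 and 93.3% were higher in replicate 1, while 743 protein-coding genes had a median of −4.08 and 84.7% were higher in replicate 1. Once the length trend was removed, 147 pseudogenes had a value: 3 leaned towards replicate 1 and 27 towards replicate 2 with a call, 117 were uncalled, and their median was 0.56 against 0.06 over all genes. That test called 42.4% of 9173 genes (21.1% towards replicate 1, 21.3% towards replicate 2). Among pseudogenes called without the correction and holding a length, 112 lost the call, 13 turned and 4 kept the same direction; 13 others gained a call.

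**Figure D2:**
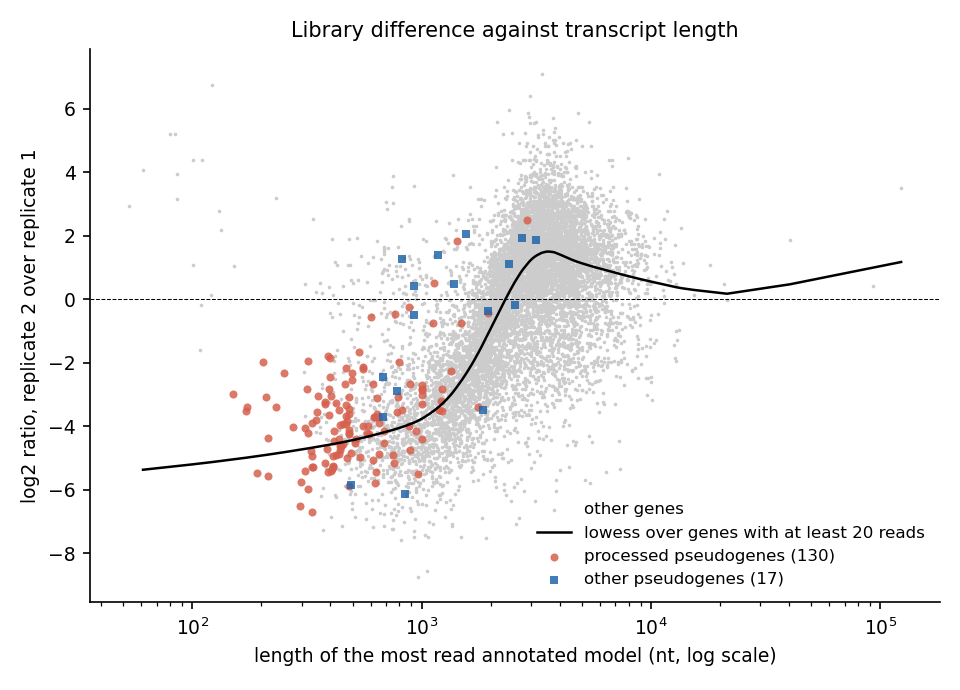
Log2 ratio of replicate 2 over replicate 1 (vertical) against the length of the most read annotated model in nt (horizontal, log scale), with 130 processed and 17 other pseudogenes over all other genes with a length and a lowess curve. Most processed pseudogenes are shorter than 1000 nt and sit near the curve, where other short genes also have negative ratios.

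Cyp21a2-ps ran against that trend. Its log2 ratio was 0.47 (1.39-fold higher in replicate 2, interval 1.16 to 1.66, adjusted p = 0.000496 by the exact binomial test) and 3.36 with the length trend removed (adjusted p = 2.86e-138). That correction used the 1383 nt of the annotated model, which held 176 of the 523 reads of Cyp21a2-ps. The next most read model, with 51 and 70 reads, was 1986 nt long, and a correction with longer models was not tested. With annotated models only the log2 ratio of Cyp21a2-ps was 0.41 and the call was lost. Gm9843 and Rpl37rt remained lower in replicate 2 after the correction, by log2 ratios of −0.84 (adjusted p = 0.0248) and −1.76 (adjusted p = 0.0468) in the exact binomial test. Gm12033 and Rpl31-ps8 turned, with corrected ratios of 0.89 and 1.38. Summed markers of cell types also differed between the libraries. These sums were not corrected for transcript length, and 84.7% of protein-coding genes under 1000 nt were higher in replicate 1. Whether length accounts for the marker differences was not tested. Markers of red blood cells stood at 1303 and 162 CPM (3 of 3 genes read), of macrophages at 990 and 252 CPM (4 of 4) and of adipocytes at 126 and 35.7 CPM (3 of 3). Endothelial markers stood at 135 and 356 CPM (3 of 3) and fibroblast markers at 237 and 216 CPM (3 of 3), against 77515 and 91005 CPM for 7 of 7 adrenal cortex genes and 6204 and 8499 CPM for 6 of 6 medulla genes. Kidney markers had no reads and liver markers 2 reads. Their part in the pseudogene values was not tested, and in whole tissue fewer cells of a type and less RNA per cell cannot be told apart.

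Splicing separated the processed copies from the rest. A read was counted as unspliced when its transcript model had 1 exon. Of the reads on the pseudogenes, 96.6% in replicate 1 and 60.5% in replicate 2 were unspliced, a mean of 78.6% ± 25.6 (SD, n = 2). Processed copies were unspliced in 99.7% and 97.8% of reads, the 28 others in 32.8% and 8.99%, and 9438 protein-coding genes in 6.88% and 4.76%. For 210 other noncoding genes the values were 73.7% and 67.3%. The median per gene was 100% in processed copies, 12.9% in the 28 others, 50% in other noncoding genes and 4.15% in protein-coding genes. No spliced read was seen in 120 of 133 processed and 5 of 28 other pseudogenes, against 359 of 9809 genes overall (3.66%). The missing introns are part of what the type processed means, so this contrast restates the annotation.

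Spliced reads came to 1063 in all, 63 of them in processed copies and 1000 in the others, and Cyp21a2-ps alone held 48.4%. Of 28 pseudogenes with at least 10 reads in each library, 2 differed in the unspliced share. The test was Fisher's exact test adjusted over 4806 genes, and it called 21.4% of all tested genes. Most of the 28 were processed copies without a spliced read in either library. In such genes the test could call no difference, so 2 of 28 cannot be set against 21.4%. Cyp21a2-ps had 8 of 218 reads unspliced in replicate 1 and 0 of 305 in replicate 2 (adjusted p = 0.0063). Gpr137b-ps, named for the lysosomal membrane protein gene Gpr137b, had 24 of 44 and 5 of 34 (adjusted p = 0.003). Both calls were lost when the models that TALON classes as genomic or antisense were left out.

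**Figure D3:**
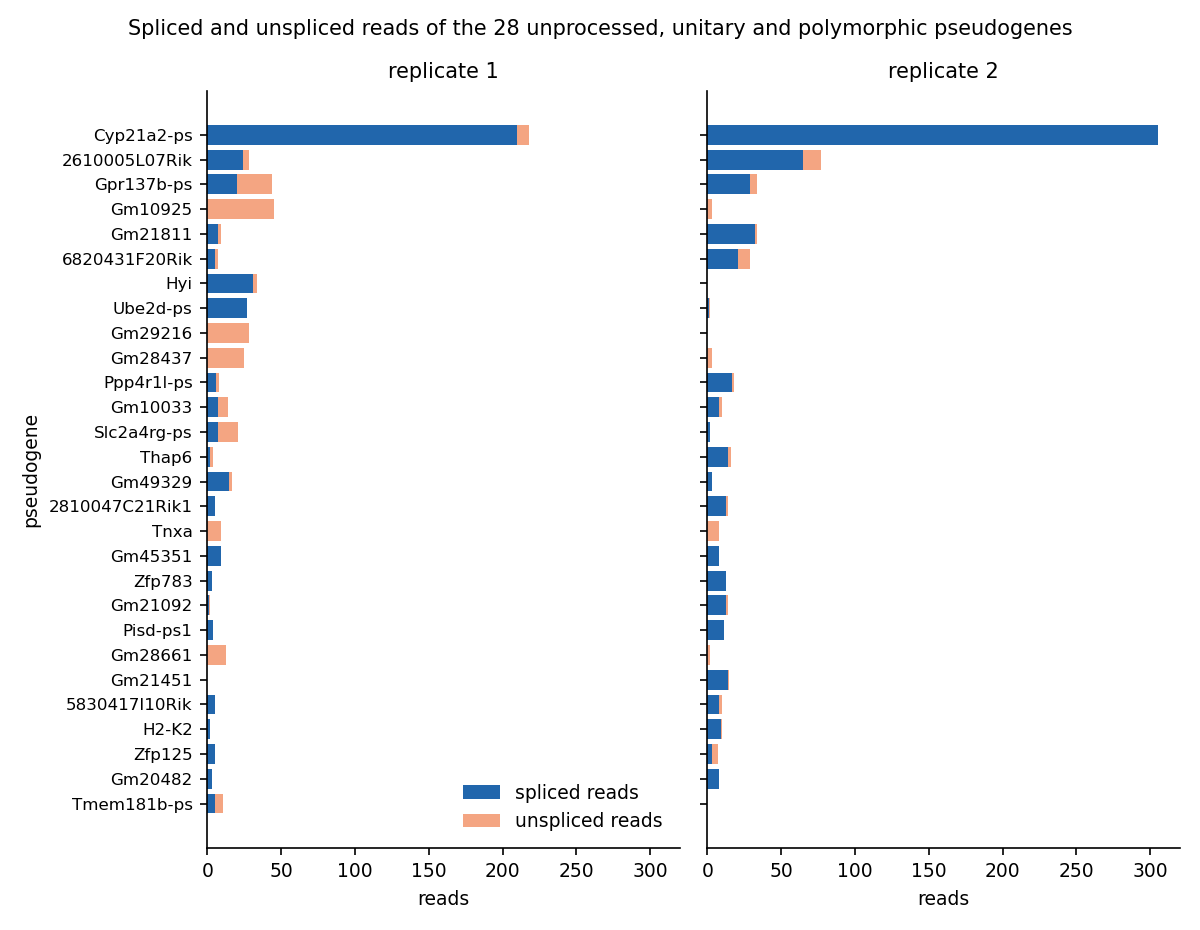
Spliced and unspliced reads (horizontal) of each of the 28 unprocessed, unitary and polymorphic pseudogenes in replicate 1 and replicate 2, ordered by reads over both libraries. Cyp21a2-ps has the longest bars, almost wholly spliced (8 of 218 and 0 of 305 reads unspliced), while Gm10925, Gm29216, Gm28437, Gm28661 and Tnxa show unspliced reads only.

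Cyp21a2-ps (chr17:34719813-34722252, minus strand) lies over Tnxb on the opposite strand, and its annotated transcript matched Cyp21a1 with an identity of 97.4% over 85% of its length. Cyp21a1 had 25459 and 14024 reads, so the pseudogene took 0.849% (0.740 to 0.969%) of the reads of both genes in replicate 1 and 2.13% (1.90 to 2.38%) in replicate 2, intervals that do not overlap. The annotated 9-exon transcript was the most read model, with 77 and 99 reads. It accounted for 35.3% (29.0 to 42.1%) and 32.5% (27.2 to 38.0%) of the pseudogene's reads. For Cyp21a1, annotated models took 91.7% and 90.2%.

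The remaining Cyp21a2-ps reads were mostly spliced in other ways. Models that follow part of the annotated chain of junctions held 36.7% and 31.8%, the most read of them with 8 exons and 51 and 70 reads. New combinations of known splice sites held 18.8% and 30.8%, with intervals of 13.8 to 24.6% and 25.7 to 36.3%, against 1.62% and 2.72% for Cyp21a1. Models with a new splice site held 5.50% and 4.92%. Tnxa, a partial copy of the tenascin gene Tnxb, had 9 and 8 reads, all unspliced.

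Among the other unprocessed genes, 4 lie close together on chromosome 8 and matched Cdh11, a cadherin of mesenchymal cells. These were 2610005L07Rik (28 and 77 reads), Gm21811 (9 and 34), 6820431F20Rik (7 and 29) and Gm21092 (2 and 14). All 4 were called higher in replicate 2, with log2 ratios from 1.43 to 2.52, and Cdh11 had 3 and 39 reads. Their identity to Cdh11 was 92.9 to 95.9%, over 13 to 98% of their lengths. A further group of 3 on chromosome 7 matched the zinc finger gene Zfp772: 2810047C21Rik1 (5 and 14 reads), Gm45351 (9 and 8) and Gm20482 (3 and 8), none of them called.

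Another 4 unprocessed genes were fragments of the mitochondrial genome inserted next to each other on chromosome 1, minus strand. Gm10925 (45 and 3 reads) matched mt-Atp6, an ATP synthase subunit. Gm28437 (25 and 3), Gm29216 (28 and 0) and Gm28661 (13 and 2) matched the cytochrome c oxidase genes mt-Co3, mt-Co1 and mt-Co2. The match was 100% for all but Gm29216, at 99.8%, and no read was spliced. Mitochondrial mt-Atp6 had 31 and 2 reads, fewer than its copy in each library, mt-Co3 51 and 5, mt-Co2 18 and 2, and mt-Co1 564 and 16.

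The unitary and polymorphic members were few. Hyi, a polymorphic pseudogene named for hydroxypyruvate isomerase, had 34 and 0 reads, of which 3 were unspliced. Slc2a4rg-ps had 21 and 2 reads, 14 and 0 of them unspliced, and was higher in replicate 1 (10.6-fold, 2.59 to 93.2, adjusted p = 7.88e-05 by the exact binomial test). Thap6, of the THAP zinc finger family, had 4 and 16 reads with 2 unspliced in each library and was higher in replicate 2 (3.96-fold, 1.28 to 16.3, adjusted p = 0.0193 by the same exact test), a call that was lost with the length trend removed, where its log2 ratio was 0.49. Hyi lost its call under that correction too, and Slc2a4rg-ps had no length.

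Spliced reads were seen in 13 processed copies. 2810025M15Rik had 15, all in its annotated 3-exon model, and Gm10509 had 12 in replicate 2 only, in 5-exon models that reach beyond the annotated gene. Gm14383 had 12 in replicate 1 only, in 2-exon models that also extend past the annotation, and no unspliced read. Gm11847 and Gm7389 followed with 5 each and Gm1821 and Gm5776 with 4 each. The remaining 6 of the 13 had 1 each, among them Gm15459, a copy of the chaperone gene Hspa8, with 1 of its 121 reads. In Gm11847, Gm7389, Gm1821 and Gm5776 the models were new ones with 2 exons, and their introns were 63 to 456 nt long.

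Processed pseudogenes with more reads were nearer in sequence to a coding gene. The transcript of every processed pseudogene was aligned to protein-coding transcripts, a step added after the read counts were known. The median identity to the closest coding transcript was 99.7% for the 133 members, all of which had an alignment. It was 97.9% over the 400 aligned of 414 genes with 1 to 9 reads. For the 8910 aligned of 9690 genes without reads it was 89.5%. With the genes lacking an alignment kept in the count, an identity of at least 98% was found in 92.5%, 46.6% and 7.53% of the 3 classes. Over all 161 expressed pseudogenes, 157 had a match, 120 at 99% or more and 44 at 100%. The 4 without a match were Hyi, Ube2d-ps, Ppp4r1l-ps and Slc2a4rg-ps.

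**Figure D4:**
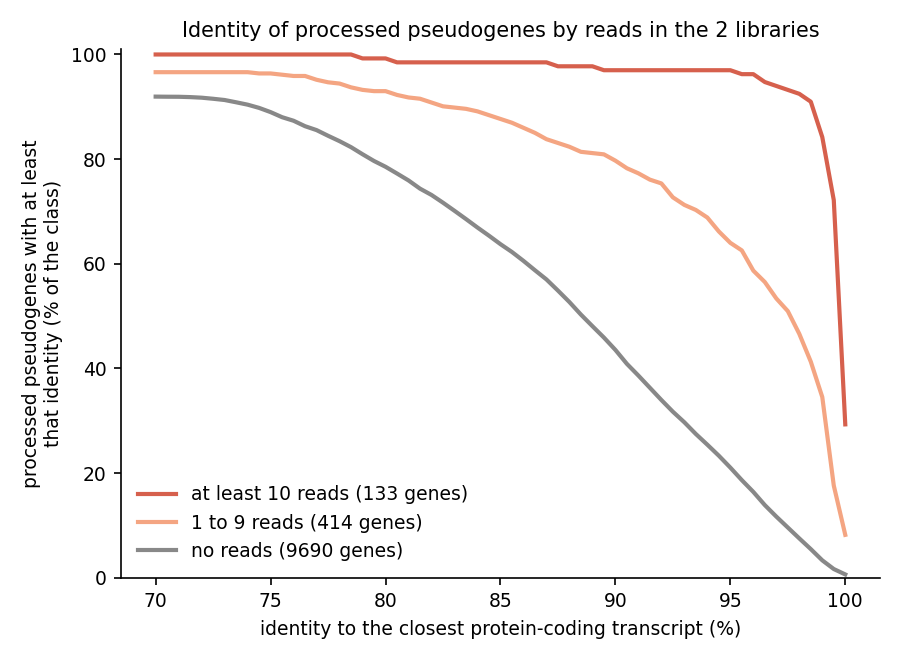
Share of processed pseudogenes (vertical, % of the class) with at least the identity given on the horizontal axis to the closest protein-coding transcript, for genes with at least 10 reads (133), 1 to 9 reads (414) and no reads (9690). The curve of the genes with at least 10 reads stays highest, with 92.5% at an identity of at least 98%, against 46.6% and 7.53% in the other classes.

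Ribosomal protein genes were the closest coding genes of 79 pseudogenes, or 59.4% of the processed members, against 26.6% of processed pseudogenes with 1 to 9 reads and 21.8% of those without. These 79 genes matched 57 ribosomal protein genes and held 58.8% of all reads on the members, 8265 in replicate 1 and 471 in replicate 2. Single genes had 10 to 668 reads. In the library test 76 were called towards replicate 1, none towards replicate 2 and 3 were uncalled, where 35.6% of all tested genes were called towards replicate 1, and the median log2 ratio was −3.81. With the length trend removed, 1 of the 79 was called towards replicate 1, 11 towards replicate 2 and 67 were uncalled, with a median of 0.58.

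A parent gene could be read from the name of 51 pseudogenes, which had 43 parents, 32 of them ribosomal protein genes. The parent by name was also the closest coding gene by sequence in 50 of the 51; Rpl36a-ps3 was closest to Rpl36al. In 44 pairs the pseudogene had fewer reads than its parent, with a median of 8.04 parent reads per pseudogene read over all pairs. The parents' own reads were nearly all spliced, with a median of 0.189% unspliced. Rps13-ps2 had 316 and 13 reads beside 879 and 22 for Rps13, Rpl10a-ps1 had 187 and 6 beside 1043 and 38 for Rpl10a, and Rpl3-ps1 had 169 and 18 beside 1305 and 127 for Rpl3. These 3 copies thus held a minor part of the reads of the pair in both libraries.

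The pseudogene was at or above its parent in the other 7 pairs. Rpl21-ps15 had 485 and 26 reads beside 28 and 5 for Rpl21, and Rpl31-ps8 had 208 and 22 beside 184 and 16 for Rpl31. Rpl17-ps5, Rpl17-ps9, Rpl17-ps3 and Rpl17-ps8 had 118, 49, 43 and 32 reads in replicate 1, where Rpl17 had 26, and 7, 11, 9 and 2 in replicate 2, where Rpl17 had 0. Gpr137b-ps had 44 and 34 beside 26 and 25 for Gpr137b.

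The median log2 ratio was −3.92 over the pseudogenes and −4.26 over the parents, with Pisd (71 and 77 reads) and Gpr137b (26 and 25) near level. The share of the pair's reads on the pseudogene had a median of 10.8% in replicate 1 and 13.6% in replicate 2. Rps23-ps1 took 38.6% and 31.0%, Rpl28-ps1 40.3% and 38.7%, Rpl19-ps11 24.7% and 27.8% and Rpl27-ps3 42.6% and 20.0%. The intervals of both libraries were apart in 3 of the 51 pairs. Rpl15-ps3 took 42.6% (38.8 to 46.5%) and 13.8% (6.15 to 25.4%), Morf4l1-ps1 20.2% (13.1 to 28.9%) and 0% (up to 12.8%), and Rpl23a-ps3 7.02% (5.11 to 9.38%) and 23.7% (11.4 to 40.2%).

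Grouped by the closest coding gene, the 133 processed pseudogenes belonged to 104 coding genes, 17 of which had more than 1 such copy. The copies held 13595 reads and the coding genes 73552, so 15.6% of their combined reads lay on copies. In 94 groups the coding gene had more reads than its copies together, and in 10, with 28 copies, it had fewer. They included Gapdh, Rpl21, Rpl35a, Rpl27, Rpl17, Rpl30, Rpl31, Atp5g2 and Isg15, counted over both libraries. In replicate 2 alone the coding gene had more reads for Rpl27 (16, against 9 on the copies) and Atp5g2 (6 against 5).

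Gapdh had the most reads on copies. Its 7 copies had 1374 and 168 reads, whereas Gapdh itself had 3 and 16, so that 99.8% (99.36 to 99.96%) and 91.3% (86.3 to 94.9%) of the reads lay on intronless copies. Gm12671 (164 and 25 reads) and Gm10359 (10 and 0) matched Gapdh at 100%. Gm13394 had 172 and 21 reads, Gm7336 39 and 3 and Gm12537 10 and 1. All 7 were called higher in replicate 1, while Gapdh had more reads in replicate 2.

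The Rpl21 copies took 96.8% (95.4 to 97.9%) and 90.4% (79.0 to 96.8%) of the reads of their group, and those of Rpl35a 81.9% (79.3 to 84.4%) and 65.7% (47.8 to 80.9%). Within the Rpl21 group, Gm10240 had 48 and 4 reads and Gm10163 46 and 2. Within the Rpl35a group Gm10243 held most, while Rpl35a-ps2 (51 and 0), Rpl35a-ps3 (36 and 2) and Rpl35a-ps6 (19 and 0) had far fewer and share the substitution printed above. Copies identical to their coding gene over their whole length took very different shares. Gm10123 took 45.5% (43.3 to 47.7%) and 42.1% (30.9 to 54.0%) of the reads with Ppia, Gm9843 43.1% and 38.6% with Fau, and Gm7536 49.1% and 55.8% with Rpl27a. By contrast Rpl10a-ps1 took 15.2% and 13.6% with Rpl10a, and Tpt1-ps3 (10 and 0 reads) 0.938% in replicate 1 with Tpt1 (1056 and 77). In 15 of the 104 groups the intervals of the libraries were apart, 9 with a higher share on copies in replicate 1 and 6 in replicate 2.

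**Figure D5:**
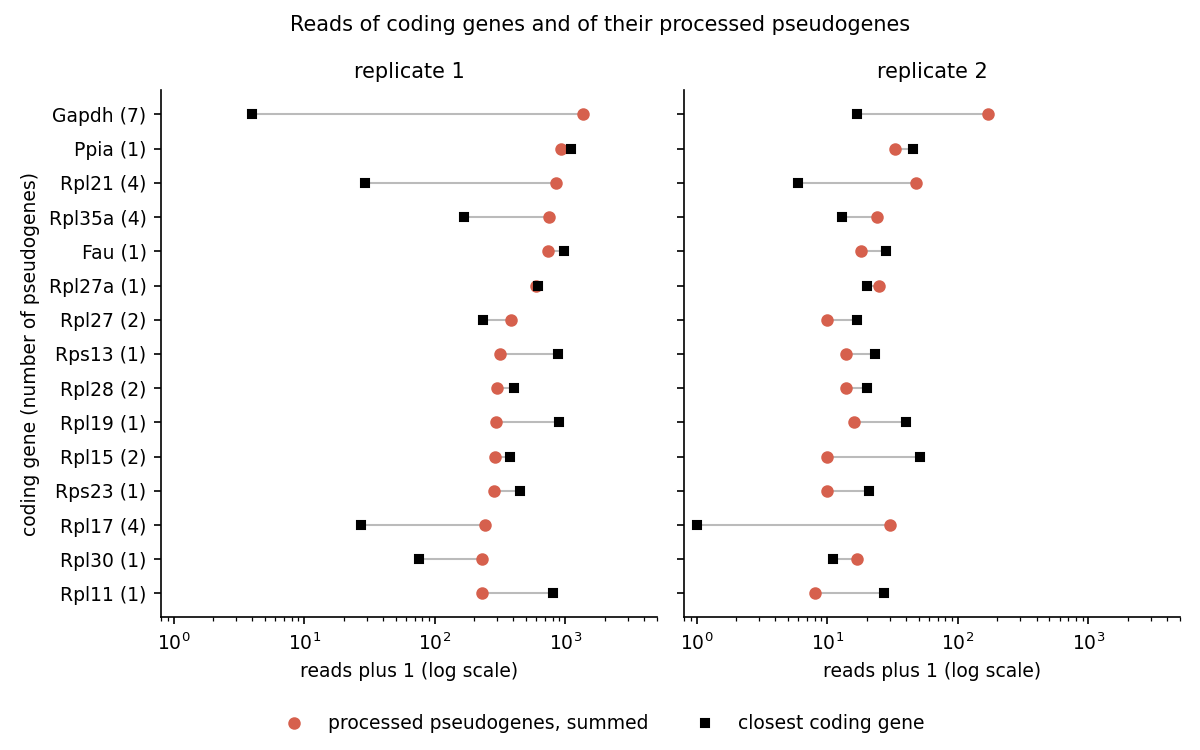
Reads plus 1 (horizontal, log scale) of the 15 coding genes with most reads on processed pseudogenes, and of those pseudogenes summed, in replicate 1 and replicate 2; the number of pseudogenes is in brackets. For Gapdh, Rpl21, Rpl35a, Rpl17 and Rpl30 the copies stand above the coding gene in both libraries, and for Ppia, Fau and Rpl27a the points lie close together.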

How the data were processed

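For each library the authors deposited a table of raw counts of reads for every transcript model. TALON made the models against mm10 and the GENCODE M21 annotation, as the headers and sample notes state. Not given in the sources used here are the aligner, read correction, strand treatment and tool versions. Counts were summed per gene; models with 1 exon were taken as unspliced. Gene types came from the deposited annotation. Libraries were compared by a two-sided exact binomial test on totals scaled by TMM (edgeR 4.0.16, R 4.3.3), and unspliced shares by Fisher's exact test. Both used SciPy 1.17.1, Benjamini-Hochberg adjustment and a threshold of 0.05. They were also run on simulated counts with counting error only and no length trend. Such counts cannot show how the tests behave on these libraries. The length trend was a lowess curve (span 0.3, genes with at least 20 reads). Closest coding transcripts came from blastn 2.17.0 (word size 16, e-value at most 1e-10), leaving out overlapping genes. Biotypes came from RefSeq. Named genes were the 15 most read, the 5 highest and 5 lowest ratios among called genes, the 8 processed genes with most spliced reads, the 10 most read with a parent by name, and all unitary or polymorphic ones; other names were added after their values were seen. The pseudogenes and lists were chosen with earlier results of these data known. Depth was 810239 and 587861 reads.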

Additional observations from a re-analysis of the deposited data

Results flagged for a closer look

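Reads of antisense models over the expressed pseudogenes entered none of the comparisons. There were 104 such reads in replicate 1 and 44 in replicate 2, and they lay over 45 of the 161 genes. Gpr137b-ps had 23 and 7, Slc2a4rg-ps 18 and 0, Tnxa 6 and 9 and Gm10033 7 and 4. Whether the counting used strand is not given in the sources used here.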

How the results depend on the processing

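The number of expressed pseudogenes, 161, became 242 with a minimum of 5 reads and 43 to 135 when either library was left out. The unspliced share of their reads, 78.6% as a mean, was 52.4% without replicate 1 and 97.1% without replicate 2, with members chosen anew; the median per gene stayed at 100% under each alternative run. Removing the length trend moved the library calls from 139 to 30, from 129 to 3 for those higher in replicate 1 and from 10 to 27 for those higher in replicate 2. The last count was 16 with total counts, 6 with a minimum of 20 reads and 3 with annotated models only. Total counts moved the median log2 ratio of all genes from −0.01 to 0.46 and gave 123 pseudogenes higher in replicate 1; of all called genes, 56.8% were then higher in replicate 2, against 46.2%. The 2 calls on unspliced shares became 0 without genomic and antisense models. Among 36 named genes, 11 changed sign once the length trend was removed: Gm12033 0.89, Gm5559 0.47, Rpl21-ps15 0.25, Rpl19-ps11 0.062, Gm13370 0.33, Rpl28-ps1 0.10, Gm12191 0.84, Rpl31-ps8 1.38, Rpl3-ps1 0.13, Gm15459 0.69 and Gm11847 2.78. A further 16 kept their sign and lost the call, while Cyp21a2-ps, Gm9843 and Rpl37rt kept both. The remaining named genes had no length. Cyp21a2-ps lost its call with annotated models only. Size factors from DESeq2 and the absence of a minimum changed no call of a named gene. The count of 44 pseudogenes below the parent ranged from 42 to 44. No paired analysis was possible because there is a single group. With 1 library left out no library test remains.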
